A study of Mus musculus with 6 samples.

Results

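Transcripts of 42 genes that encode the mTOR kinase complexes and the proteins that sense nutrients, growth factors and stress for them were followed in mouse lung. The genes were chosen by name as components of the pathway. All 42 symbols were found among the 24054 gene rows of the table, and all 42 were among the 14159 genes with a mean of at least 1 that were tested. They cover the TSC complex, the GTPase Rheb, both mTOR complexes, the Rag GTPases, Ragulator, the folliculin (FLCN) complex, GATOR1 and GATOR2, the sestrins, the S6 kinases, the 4E-BPs with eIF4E, and the regulators Ddit4 and Ulk1.

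The samples were 6 lung libraries of SCID mice, 3 in each of 2 groups. The protocol gives the mice as female without an age. No label says whether each library came from its own mouse. Labelled extracellular vesicles (EVs) carrying CD9, CD63 and CD81 had been given to all the mice through the tail vein. The EVs came from cultured neural progenitors of E15.5 mouse embryos, wild type for the control group (libraries W1 to W3, WT EV) and lacking Tsc1 for the other (libraries N1 to N3, Tsc1-null EV). Rat ELT3 cells followed by vein 48 h after the EVs in all mice, and the lungs were assessed for rat cells 72 h later. The labels give no separate time for the RNA. ELT3 is an Eker rat uterine leiomyoma line without functional Tsc2, used as a model of lymphangioleiomyomatosis. The Tsc1 deletion was in the EV donor cells and not in the mice, so Tsc1 in the lung is no check of the labels. Untreated lungs were not analysed here.

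mTOR is a kinase that works in 2 complexes. mTORC1 contains Raptor and drives protein synthesis and growth. mTORC2 contains Rictor and phosphorylates AKT and related kinases. Growth factors reach mTORC1 through AKT, which restrains the TSC complex, the inactivator of Rheb. Amino acids reach it through the Rag GTPases, which Ragulator anchors to the lysosome and which GATOR1, GATOR2, folliculin and the sestrins control. Loss of TSC1 or TSC2 leaves mTORC1 active and underlies tuberous sclerosis and lymphangioleiomyomatosis. Much of this control acts on proteins, by phosphorylation, GTP loading and movement to the lysosome, and mRNA levels do not show it.

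Levels are TMM-normalized CPM, read counts scaled to a common library size (the deposited scale), with 5101413 to 9358820 reads per library. Libraries W2 and N1 differed most from the rest, and are called the libraries standing apart below. The nuclear RNA Malat1 was at 15673 CPM and 30060 CPM in these libraries, against 1609 to 2819 CPM in the others. The mesothelial marker Msln was at 414 CPM and 7.02 CPM, against 113 to 160 CPM. Lung markers were present (Sftpc at 20403 CPM on average). Of 16 cell type and nuclear RNA marker lists, 14 overlapped between the groups in their mean log2 level. The ciliated cell list was higher in that mean in N1 to N3, while its summed level overlapped, at 896 to 1719 CPM there and 708 to 958 CPM in W1 to W3. The erythroid list was lower in N1 to N3, with a summed level of 2472 to 4919 CPM against 5725 to 6967 CPM in W1 to W3. In these bulk samples fewer cells of a type and less RNA per cell cannot be told apart, and the part of cell composition in the differences below was not tested.

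No member passed the comparison of the groups at an adjusted p under 0.05. Limma called 0 of 42 members, where the background over all genes tested was also 0%. At an unadjusted p under 0.05 there were 3 members (Rragd, Sesn3 and Akt1s1), 7.14% of the 42 against 6.57% of all genes. On recovered reads edgeR and DESeq2 gave the same 3 at an unadjusted p under 0.05 (backgrounds 6.93% and 5.22%). After adjustment they gave 0 members (backgrounds 0% and 0.0778%). The unadjusted backgrounds are over 13873 genes for edgeR and 18434 for DESeq2. The DESeq2 set includes genes at low levels, so its share is not directly comparable. Limma with sample weights, which count N1 least, called 4 members (Rragd, Sesn3, Akt1s1 and Fnip1), 9.52% against a background of 7.42%. The weights were 4.19 for W3 and 3.95 for N2, against 0.213 (N1) to 0.933 (W1) for the others. The calls of this fit therefore rest mostly on W3 and N2. The fitted difference in log2(value + 1), given below as log2 fold with the WT EV group as base, had a median of -0.05 over the members and -0.02 over all genes tested. Single members lay between -0.45 for Akt1s1 and 0.80 for Sesn3, and 30 of 42 lay within 0.25 of 0. The 95% interval of the log2 fold lay wholly between -1 and 1 for 38 members, 90.5% of them against 80.3% of all genes. The other 4 were Rragd, Sesn3, Ddit4 and Rps6kb1. Each interval is for that gene alone, on the log2(value + 1) scale.

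**Figure D1:**
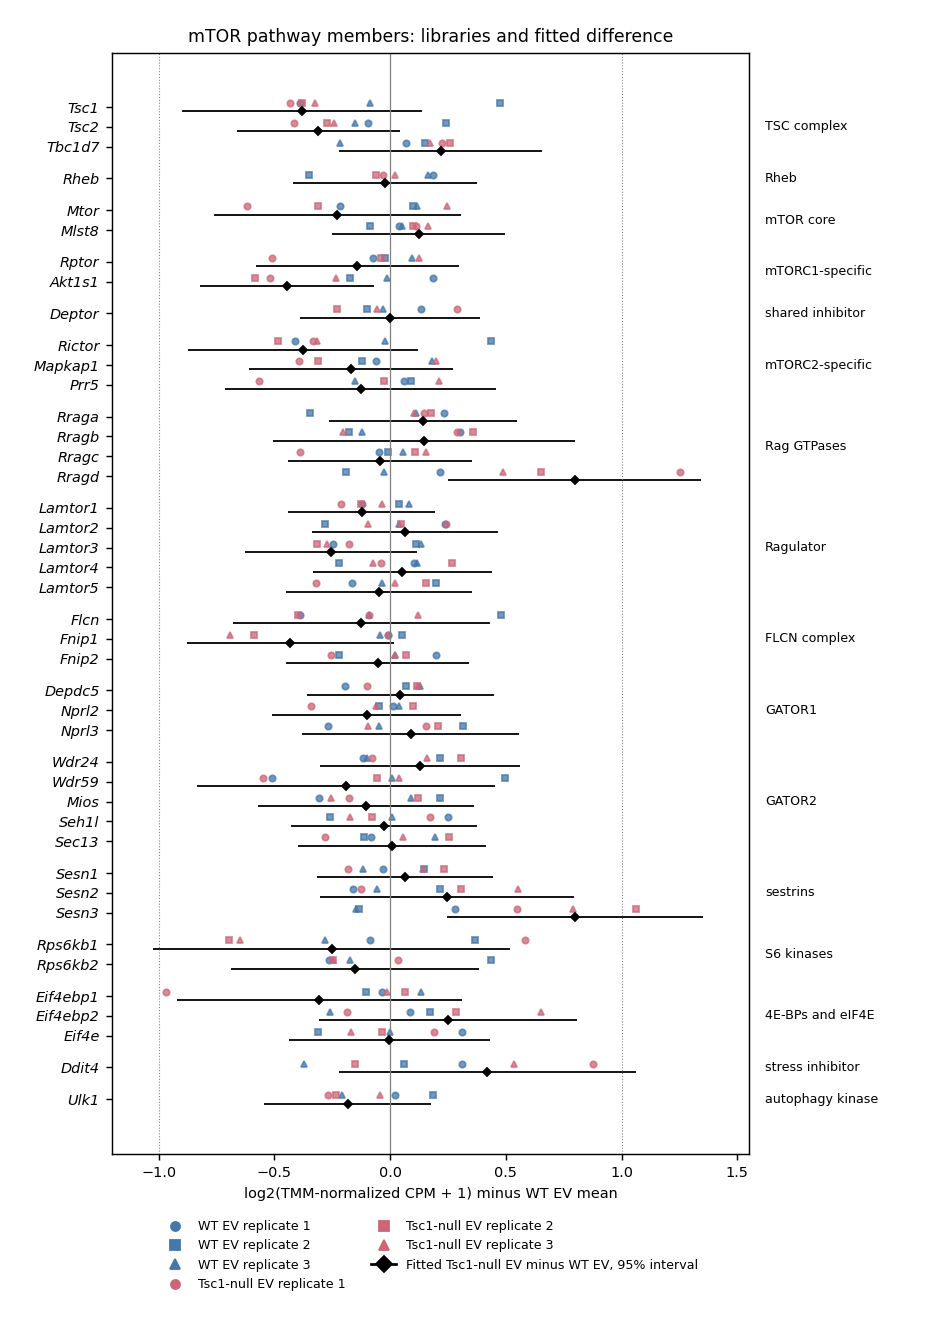
Each row is a member, ordered by complex, on the scale of log2(TMM-normalized CPM + 1). Coloured symbols give each library minus the WT EV mean (blue for WT EV, red for Tsc1-null EV, 3 libraries each), black diamonds the fitted difference with its 95% interval, and dotted lines a log2 difference of -1 and 1. The diamonds of Rragd and Sesn3 stand to the right and that of Akt1s1 to the left with intervals that leave out 0, and 30 of 42 diamonds lie within 0.25 of 0.

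The 3 libraries of each group did not overlap for 6 members, 14.3% of the 42 against 13.1% of all genes tested. Tbc1d7, Mlst8, Rragd and Sesn3 were higher in all 3 Tsc1-null EV libraries (9.52% of members, background 6.86%), and Tsc2 and Akt1s1 were lower in all 3 (4.76% of members, background 6.22%). These shares are near the background, so the count itself is no result about the pathway. Without W2 and N1, which leaves 2 libraries a group, 10 members were higher and 9 lower in all Tsc1-null EV libraries (backgrounds 20.9% and 21.5%), 45.2% together against 42.4% of all genes, and 0 members passed after adjustment (background 0.164%).

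The promoters of the 2 members with the largest differences, Rragd and Sesn3, are shown with that of Rragc, the paralog of Rragd whose level overlapped between the groups. The sequences are the 250 bases before each gene's start in RefSeq, build GRCm38.p6, plus strand in all 3. Capitals mark the only match to any of 4 motifs searched on both strands. The motifs were TCACGTG, the E-box core that MiT/TFE and other E-box factors bind, CCGGAAG of ETS factors, GTAAACA of FOXO factors and TGATGNAA of ATF4-type dimers. The Sesn3 window lies inside the gene as GENCODE M21 draws it, outside its exons, and 87 bases of the Rragc window lie in an exon of Gm12905.
Rragd, chr4:32982748-32982997: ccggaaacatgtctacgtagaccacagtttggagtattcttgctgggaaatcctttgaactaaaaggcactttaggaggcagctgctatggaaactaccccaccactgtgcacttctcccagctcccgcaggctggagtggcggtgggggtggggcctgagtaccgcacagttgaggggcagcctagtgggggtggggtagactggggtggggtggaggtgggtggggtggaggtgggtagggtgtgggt
Rragc, chr4:123917183-123917432: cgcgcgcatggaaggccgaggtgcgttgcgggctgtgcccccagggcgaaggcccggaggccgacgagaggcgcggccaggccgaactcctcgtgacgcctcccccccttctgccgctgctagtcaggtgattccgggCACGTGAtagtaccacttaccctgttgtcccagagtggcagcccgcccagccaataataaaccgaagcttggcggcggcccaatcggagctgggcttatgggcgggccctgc
Sesn3, chr9:14276051-14276300: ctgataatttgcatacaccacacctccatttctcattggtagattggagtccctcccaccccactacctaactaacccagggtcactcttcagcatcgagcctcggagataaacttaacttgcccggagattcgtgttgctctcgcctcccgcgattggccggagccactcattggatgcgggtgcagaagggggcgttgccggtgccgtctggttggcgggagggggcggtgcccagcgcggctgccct
The Rragc window holds 1 E-box core, read as CACGTGA on the strand shown, 24 CG dinucleotides and 68% G and C. The Rragd window holds 5 CG dinucleotides and the Sesn3 window 16, each with 59.6% G and C and no match to the 4 motifs. Bases outside the windows and other forms of the motifs were not searched, and a link with the levels was not tested.

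Of the 36 members with a promoter in the RefSeq set, 7 hold TCACGTG (Rheb, Rragb, Rragc, Lamtor1, Lamtor4, Fnip1 and Eif4e), 19.4% against 3.58% of 27025 genes. CCGGAAG is held by 8 (Tsc2, Mtor, Akt1s1, Mapkap1, Rraga, Nprl2, Sec13 and Eif4ebp2), 22.2% against 7.83%. Both motifs contain CG, and the members' windows have a median of 16.5 CG dinucleotides against 6 over all genes, so these shares describe the windows and were not tested. GTAAACA and TGATGNAA are each held by 1 member (Mapkap1 and Lamtor4), 2.78% against 3.54% and 3.91%. The ETS match of Tsc2 and Akt1s1, the 2 members that were lower in all 3 Tsc1-null EV libraries, is shown in 30 bases around it, 5′ to 3′ on the gene's own strand, with the match in capitals. Akt1s1 holds the motif on the opposite strand. GENCODE M21 exons cover 201 of the 250 bases before the Tsc2 start (Nthl1 and Tsc2) and 175 of those before the Akt1s1 start (Akt1s1 itself).
Tsc2, minus strand, chr17:24632628-24632657: aatagtcagcaaagcctcgcccCCGGAAGt
Akt1s1, plus strand, chr7:44850312-44850341: ccccgggcgggaCTTCCGGtcccgatcccc
The motif is also in the windows of Mtor, Mapkap1, Rraga, Nprl2, Sec13 and Eif4ebp2, whose libraries overlapped between the groups. Their log2 folds ran from -0.23 for Mtor to 0.25 for Eif4ebp2. A link between the motif and the levels was not tested.

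The TSC complex, which inactivates Rheb and so restrains mTORC1, was measured through its 3 subunits. Tsc2, the subunit with the GTPase-activating domain, stood at 92.8, 117.4 and 89.2 CPM in W1 to W3 and at 74.0, 81.9 and 83.7 CPM in N1 to N3. The groups did not overlap, with W2 highest and N1 lowest (99.8 ± 15.4 and 79.9 ± 5.199, SD, n = 3; log2 fold -0.31 ± 0.16 SE, limma adjusted p = 0.721). Without these 2 libraries the log2 fold was -0.13. Tsc2 lies on chromosome 17 from 24595816 to 24632630 (minus strand, build mm10, GENCODE M21). Its 40-exon principal transcript shares 9.51% of its bases with exons of Pkd1 on the other strand. Pkd1 stood at 61.8, 135.8 and 94.6 CPM in W1 to W3 and 42.7, 70.5 and 85.2 CPM in N1 to N3, with the same libraries highest and lowest. Reads from the shared stretch cannot be assigned without knowing how strand was used, which is not given in the sources used here.

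Tsc1 encodes the scaffold of the complex. It stood at 17.8, 33.2 and 22.2 CPM in W1 to W3 and 17.2, 17.9 and 18.7 CPM in N1 to N3 (24.4 ± 7.94 and 17.9 ± 0.715). W2 was above all others, and the groups overlapped (log2 fold -0.38 ± 0.23, limma adjusted p = 0.748). The log2 fold was -0.14 without W2 and -0.57 without W1. Tbc1d7, which stabilises the complex, stood at 7.44, 7.94 and 5.92 CPM and at 8.42, 8.63 and 8.06 CPM. All 3 Tsc1-null EV libraries were higher, while the counting error of 13.3% exceeded the 10.7% spread within groups and the groups overlapped with edgeR's scaling (log2 fold 0.22 ± 0.19, limma adjusted p = 0.830). Within each library the ratio of Tsc2 to Tsc1 CPM was 4.25 ± 0.863 (W1 to W3) and 4.45 ± 0.147 (N1 to N3), and overlapped.

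Rheb, the GTPase that activates mTORC1, was at 118.8, 81.6 and 117.0 CPM in W1 to W3 and at 102.04, 99.95 and 105.94 CPM in N1 to N3. The Tsc1-null EV values lay inside the WT EV range (log2 fold -0.02 ± 0.17, limma adjusted p = 0.985), and the 95% interval ran from -0.42 to 0.37.

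The shared core of both complexes is the kinase Mtor with Mlst8, which stabilises its kinase domain. Mtor stood at 24.2, 30.3 and 30.7 CPM in W1 to W3 and 18.0, 22.5 and 33.7 CPM in N1 to N3, so that the Tsc1-null EV group held both the lowest and the highest value (log2 fold -0.23 ± 0.23, limma adjusted p = 0.863). Mlst8 was the most even member, at 11.95, 10.9 and 12.1 CPM and at 12.6, 12.5 and 13.1 CPM. Its groups did not overlap, but the log2 fold of 0.12 ± 0.16 (limma adjusted p = 0.903) was small, and the counting error of 10.6% exceeded the 4.46% spread within groups. A share of 25.9% of the principal Mlst8 transcript overlaps exons of Bricd5 on the other strand.

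Of the mTORC1-specific subunits, Rptor, the scaffold Raptor that recruits substrates, was at 30.7, 31.9 and 34.7 CPM in W1 to W3 and 22.5, 31.5 and 35.5 CPM in N1 to N3 (log2 fold -0.14 ± 0.19, limma adjusted p = 0.905). Only N1 lay apart, and without it the log2 fold was 0.04. Akt1s1 encodes PRAS40, an inhibitory subunit released when AKT phosphorylates it. It stood at 64.4, 49.97 and 55.9 CPM in W1 to W3 and 39.1, 37.3 and 47.8 CPM in N1 to N3. Every Tsc1-null EV library was below every WT EV library (56.8 ± 7.25 and 41.4 ± 5.63; log2 fold -0.45 ± 0.17, limma adjusted p = 0.721). The log2 fold was -0.50 without the 2 libraries standing apart and ran from -0.55 to -0.35 with 1 library left out. Akt1s1 lies on chromosome 7 from 44848991 to 44855421 (plus strand, mm10), with 5 exons in its principal transcript. Deptor, an inhibitor of both complexes, was at 144.0 to 169.4 CPM in W1 to W3 and 131.5 to 189.0 CPM in N1 to N3, and overlapped.

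Of the mTORC2-specific subunits, Rictor, its defining scaffold, stood at 29.2, 53.2 and 38.5 CPM in W1 to W3 and 30.9, 27.7 and 31.3 CPM in N1 to N3. W2 was highest, W1 lay among the Tsc1-null EV values, and the groups overlapped (log2 fold -0.38 ± 0.22, limma adjusted p = 0.744). Without W1 the log2 fold was -0.58, and without W2 it was -0.16. Mapkap1, which encodes the SIN1 subunit, was at 39.2 to 48.6 CPM and at 32.3 to 49.2 CPM. Prr5, the subunit Protor-1, was low, at 4.07 to 5.00 CPM and at 2.81 to 5.52 CPM. The ratio of Rptor to Rictor CPM, which no scaling between libraries changes, was 1.05, 0.599 and 0.901 in W1 to W3 and 0.727, 1.14 and 1.13 in N1 to N3. The lowest ratios in the 2 groups were in W2 and N1.

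The Rag GTPases act as dimers of RagA or RagB with RagC or RagD. Rragd stood at 10.25, 7.50 and 8.51 CPM in W1 to W3 and at 22.1, 14.2 and 12.6 CPM in N1 to N3, from 51 to 132 reads per library. All 3 Tsc1-null EV libraries were above all WT EV libraries, with N1 highest (8.75 ± 1.39 and 16.3 ± 5.05; log2 fold 0.80 ± 0.24, limma adjusted p = 0.721). The log2 fold was 0.57 without N1 and 0.48 without both libraries standing apart. Rragd lies on chromosome 4 from 32983037 to 33022180 (plus strand, mm10) and shares 0.190% of its 50-base words with other genes. Its paralog Rragc was at 67.5, 69.2 and 72.4 CPM and at 52.9, 75.2 and 77.7 CPM, and overlapped. Of the CPM of the pair, Rragd made up 13.2%, 9.77% and 10.5% in W1 to W3. It made up 29.4%, 15.9% and 13.95% in N1 to N3, without overlap. This share restates the Rragd values on a scale free of library size and is no separate support. Rraga was at 32.5 to 49.0 CPM and at 44.7 to 47.0 CPM. Rragb was low, at 0.994 to 1.94 CPM from 7 to 18 reads.

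**Figure D2:**
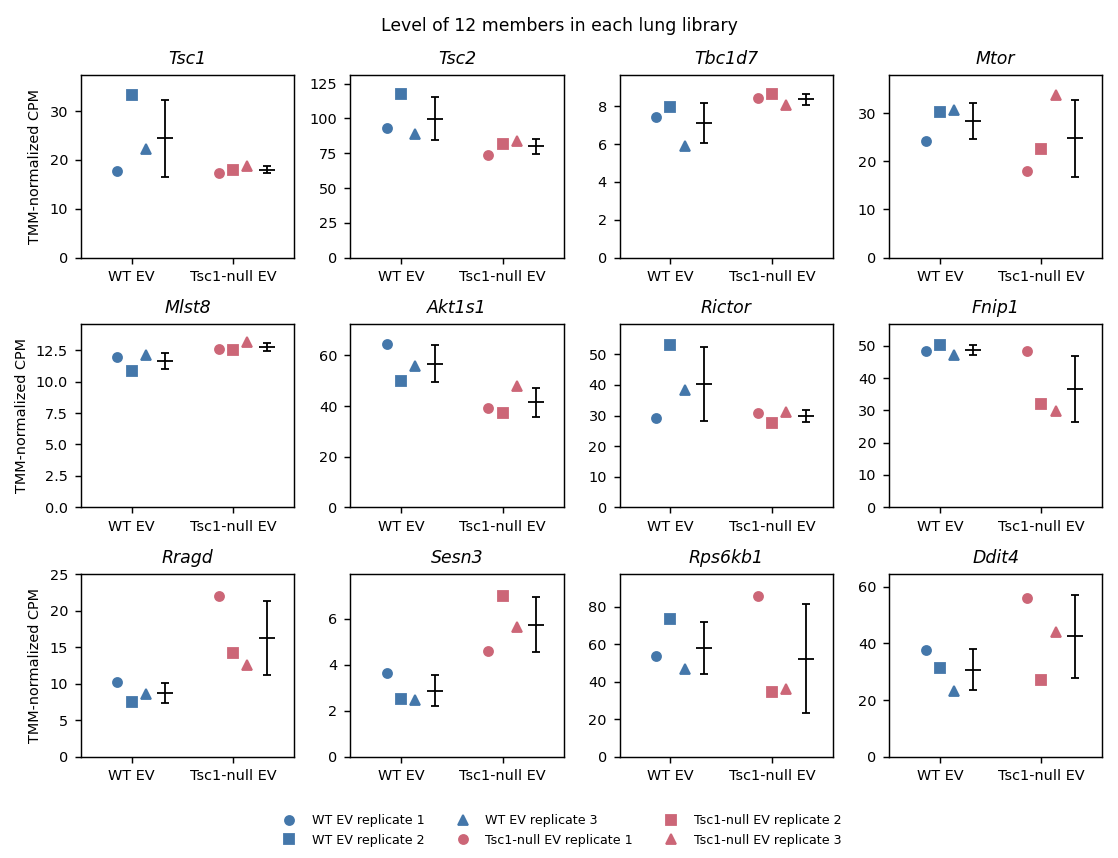
TMM-normalized CPM (y axes, from 0) of 12 members in the 3 WT EV libraries (blue) and the 3 Tsc1-null EV libraries (red), with the mean and SD in black. Rragd is at 7.50 to 10.25 in WT EV and 12.6 to 22.1 in Tsc1-null EV libraries and Akt1s1 at 49.97 to 64.4 and 37.3 to 47.8, while the highest Tsc1 and Rictor values are those of W2.

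Ragulator, the lysosomal anchor of the Rags, gave overlapping values for all 5 subunits. Lamtor1, which tethers the complex to the membrane, was at 47.7 to 54.9 CPM in W1 to W3 and 44.7 to 50.7 CPM in N1 to N3. Lamtor2 was at 57.3 to 82.6 CPM and at 65.3 to 82.6 CPM, and Lamtor3 at 27.7 to 36.3 CPM and at 26.3 to 29.1 CPM. Lamtor4 was at 33.8 to 42.9 CPM and at 37.6 to 47.9 CPM. Lamtor5 was at 44.8 to 57.8 CPM and at 40.1 to 56.1 CPM. The fitted log2 folds of the 5 had a median of -0.05. Lamtor1 and Lamtor5 share 25.6% and 14.5% of their words with other genes, which makes their levels uncertain.

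The folliculin complex acts on RagC and RagD and thereby steers the transcription factors TFEB and TFE3. Fnip1, a partner of folliculin, stood at 48.4, 50.4 and 47.3 CPM in W1 to W3 and 48.3, 32.0 and 29.7 CPM in N1 to N3. N2 and N3 were below all others, and N1 lay within the WT EV range, so the groups overlapped (log2 fold -0.43 ± 0.20, limma adjusted p = 0.721). The log2 fold was -0.64 without N1. This gene, like Ddit4 and Rps6kb1, was chosen for its fold after its values were seen. Flcn was at 23.8, 44.2 and 29.5 CPM and at 29.5, 23.6 and 34.2 CPM, again with W2 highest. Fnip2 was at 27.3 to 36.8 CPM and at 26.7 to 33.6 CPM. The mean log2 level of the 3 genes relative to WT EV was -0.07, 0.10 and -0.04 in WT EV and -0.12, -0.31 and -0.18 in Tsc1-null EV libraries.

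GATOR1, which inactivates RagA and RagB, and GATOR2, which opposes it, overlapped between the groups for all 8 subunits. Of GATOR1, Depdc5 was at 12.3 to 15.7 CPM in W1 to W3 and 13.2 to 15.6 CPM in N1 to N3, Nprl2 at 14.7 to 15.7 and 11.8 to 16.4 CPM, and Nprl3 at 11.0 to 16.9 and 12.5 to 15.6 CPM. Exons of Mpg overlap 25.8% of the principal Nprl3 transcript, which makes its level uncertain. Of GATOR2, Wdr24 was at 12.1 to 15.4 and 12.4 to 16.5 CPM, Mios at 11.5 to 16.9 and 11.9 to 15.7 CPM, and Wdr59 at 9.51 to 20.1 and 9.22 to 14.4 CPM. Seh1l and Sec13 also serve in the nuclear pore, and Sec13 in COPII coats as well. Seh1l stood at 51.9 to 74.4 and 55.2 to 70.4 CPM, and Sec13 at 68.9 to 85.4 and 61.1 to 89.2 CPM.

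The sestrins are stress-induced proteins that restrain mTORC1 through GATOR2, and Sesn2 senses leucine. Sesn3 stood at 3.66, 2.50 and 2.47 CPM in W1 to W3 and at 4.61, 7.01 and 5.63 CPM in N1 to N3, from 17 to 65 reads per library. All 3 Tsc1-null EV libraries were higher (2.88 ± 0.679 and 5.75 ± 1.203; log2 fold 0.80 ± 0.24, limma adjusted p = 0.721), and the log2 fold was 0.86 without the 2 libraries standing apart. At this depth counting alone gives a spread of 19.2%, against 22.3% within groups. Sesn3 lies on chromosome 9 from 14275067 to 14333101 (plus strand, mm10). Sesn1, the most abundant sestrin per kb, was at 38.4, 43.7 and 36.2 CPM and at 34.5, 46.4 and 43.4 CPM, and Sesn2 at 4.88, 6.61 and 5.31 CPM and at 5.01, 7.12 and 8.62 CPM. Both overlapped. The ratio of Sesn3 to Sesn1 CPM was 0.0952, 0.0572 and 0.0683 in WT EV and 0.134, 0.151 and 0.130 in Tsc1-null EV libraries. This ratio restates the Sesn3 values on a scale free of library size and is no separate support.

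Among the outputs, the S6 kinase gene Rps6kb1 varied most within groups. It stood at 53.4, 73.5 and 46.6 CPM in W1 to W3 and at 85.6, 34.7 and 35.9 CPM in N1 to N3 (log2 fold -0.25 ± 0.34, limma adjusted p = 0.904). Its 2 highest libraries were the 2 with the most Malat1, and the part of nuclear RNA in this was not tested. Without both, Rps6kb1 was lower in both Tsc1-null EV libraries (log2 fold -0.49). Rps6kb2 had the same 2 libraries highest, at 14.1 and 10.4 CPM against 8.29 to 8.88 CPM, and shares 19.5% of its words with Ptprcap. This pattern held for 4.76% of members and 12.4% of all genes. Eif4ebp1 and Eif4ebp2 encode 4E-BPs, which bind the cap-binding protein eIF4E until mTORC1 phosphorylates them. Eif4ebp1 was at 29.6, 28.2 and 33.4 CPM and at 15.04, 31.8 and 30.05 CPM, low only in N1. Eif4ebp2 was at 10.6 to 14.7 and 11.2 to 20.9 CPM, and Eif4e at 50.1 to 77.7 and 55.5 to 71.4 CPM. Ulk1, the autophagy kinase that mTORC1 inhibits, was at 43.8 to 57.8 and 41.9 to 49.2 CPM.

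Ddit4 encodes REDD1, an mTORC1 inhibitor induced by hypoxia, glucocorticoids and stress. It stood at 37.7, 31.5 and 23.1 CPM in W1 to W3 and 56.1, 27.1 and 44.2 CPM in N1 to N3, and overlapped (log2 fold 0.42 ± 0.28, limma adjusted p = 0.772). The log2 fold was 0.71 without N2, 0.19 without N1 and 0.23 without W3.

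**Figure D3:**
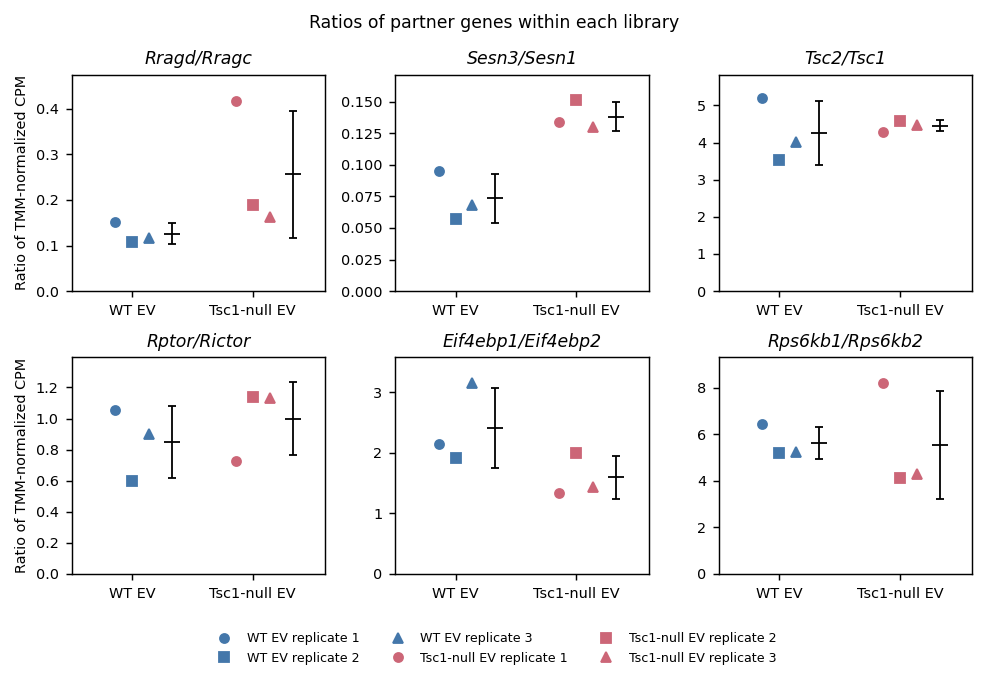
Ratio of the TMM-normalized CPM of 2 partner genes within each library (y axes, from 0), for the 3 WT EV (blue) and 3 Tsc1-null EV (red) libraries, with the mean and SD in black. Sesn3/Sesn1 lies at 0.0572 to 0.0952 in WT EV and 0.130 to 0.151 in Tsc1-null EV libraries. Rragd/Rragc lies at 0.108 to 0.152 and 0.162 to 0.417, and the other 4 ratios overlap. The ratios of Sesn3 and Rragd restate the levels of these genes.

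Levels can be compared between members only per transcript length, here as CPM per kb of the longest principal transcript in GENCODE M21. On this scale the mean level over the 6 libraries spanned a 228-fold range, from 0.473 CPM per kb for Sesn3 to 107.7 for Lamtor2. The Ragulator genes lay between 23.5 for Lamtor3 and 107.7 for Lamtor2, while the large scaffolds were low, with Mtor at 3.10, Rptor at 4.72, Rictor at 3.77 and Tsc1 at 2.76. Tsc2 was at 14.9 and above Tsc1 in every library. Among paralogs, Rraga (27.2) stood 42.4-fold above Rragb (0.643), Rragc (26.7) 10.7-fold above Rragd (2.50), and Sesn1 (15.54) 32.9-fold above Sesn3. The 3 folliculin complex genes were close, at 8.96, 6.83 and 8.36 for Flcn, Fnip1 and Fnip2, and their libraries overlapped. The order depends on the transcript taken: by the union of all annotated exons Rheb ranked 12 of 42 in place of 2.

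**Figure D4:**
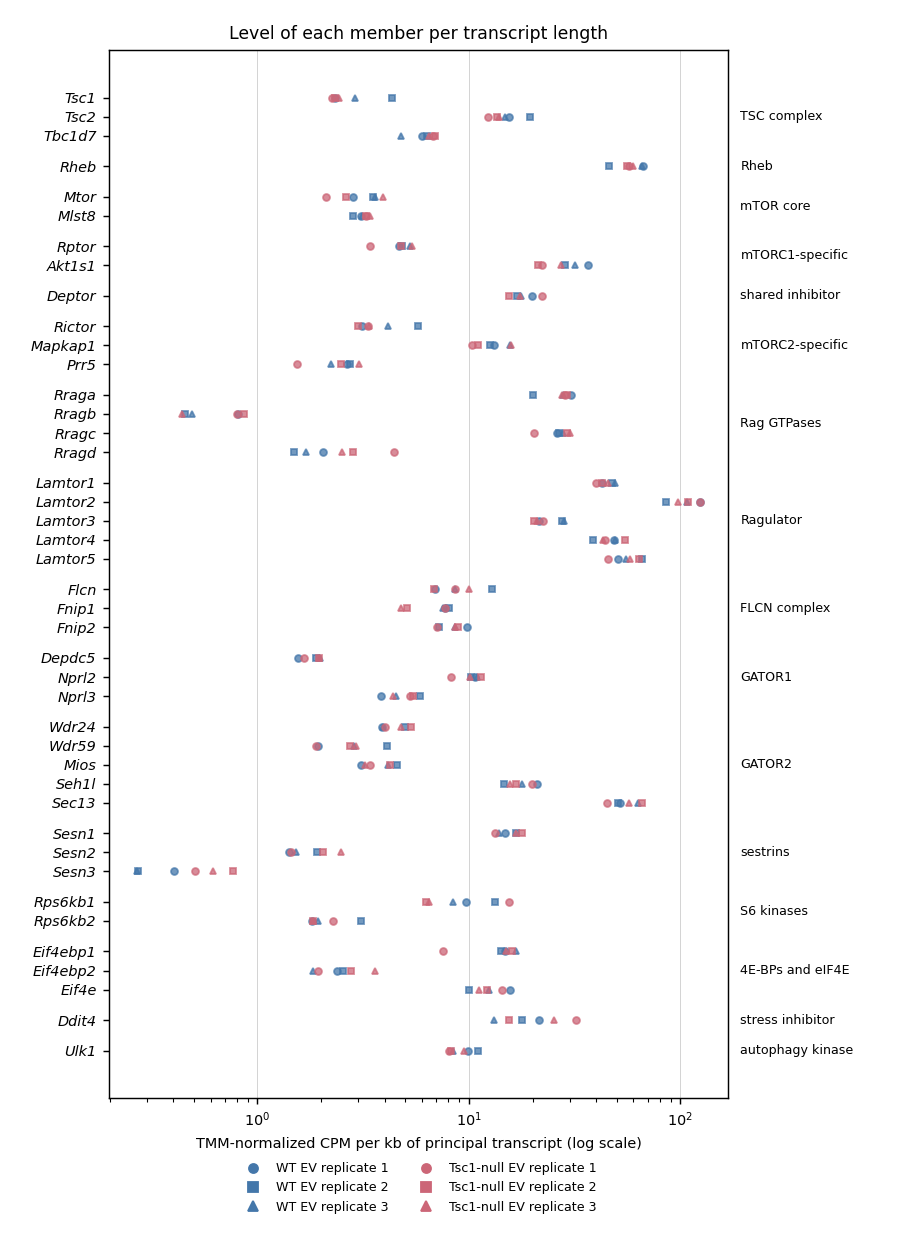
TMM-normalized CPM per kb of principal transcript (x axis, log scale) of each member in the 3 WT EV (blue) and 3 Tsc1-null EV (red) libraries, ordered by complex. Lamtor2 is highest with a mean of 107.7 and Sesn3 lowest with 0.473, and the colours overlap in 36 rows and are apart in 6, with red higher for Rragd, Sesn3, Tbc1d7 and Mlst8 and lower for Tsc2 and Akt1s1.

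The pathway was also followed through lists of genes around these components. Of 27 growth factor and energy genes, 2 were higher and 4 lower in all 3 Tsc1-null EV libraries, with a median log2 fold of -0.02. Over all genes tested 6.86% were higher and 6.22% lower in this way, and the counts of the lists below are to be read against these shares. Irs1, an adaptor of insulin and IGF1 receptors that S6 kinase feedback acts on, was at 41.965 ± 3.31 CPM in W1 to W3 and 27.7 ± 1.30 CPM in N1 to N3 (log2 fold -0.58 ± 0.14). Insr, the insulin receptor, was at 71.9 ± 4.23 and 60.0 ± 2.08 CPM (log2 fold -0.25 ± 0.13). Of 12 other nutrient sensors and anchors measured 1 was higher in all 3 and 0 were lower, and of 9 assembly factors and mTORC2 partners 0 were higher and 3 lower. The latter were Prkca, a kinase matured by mTORC2, at 59.2 ± 1.08 and 41.7 ± 9.13 CPM, Prr5l, the subunit Protor-2, at 19.8 ± 1.04 and 15.0 ± 0.237 CPM, and the assembly factor Tti2 at 9.36 ± 0.987 and 6.80 ± 0.383 CPM. In limma without sample weights 0 of these genes passed after adjustment. With sample weights, where 7.42% of all genes passed, Irs1, Prkca and Prr5l passed lower, as did Rhebl1, a paralog of Rheb. Gatsl3 (Castor1, an arginine sensor) passed higher. The groups overlapped for both Rhebl1, at 1.80 to 6.47 CPM from 9 to 48 reads, and Gatsl3, at 11.97 to 17.3 CPM.

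Of 19 further effectors, 1 was higher and 2 lower in all 3 Tsc1-null EV libraries, with a median log2 fold of -0.01. Tfeb, the lysosomal transcription factor that mTORC1 keeps out of the nucleus, was at 27.5 ± 2.30 CPM in W1 to W3 and 20.9 ± 2.56 CPM in N1 to N3 (log2 fold -0.39 ± 0.16), and Eef2k, the kinase of elongation factor 2, at 27.1 ± 0.552 and 30.7 ± 0.382 CPM. The 14 MiT/TFE target genes had a median of 0.09, with 1 higher (Sqstm1, the autophagy receptor p62, at 291.0 ± 20.4 and 325.6 ± 17.2 CPM) and 0 lower. The 14 ATF4 targets had a median of 0.12, with 2 higher and 0 lower, among them the amino acid transporter gene Slc7a5 at 3.59 ± 0.212 and 5.55 ± 0.805 CPM. The 10 SREBP genes had a median of 0.42, with 5 higher and 0 lower, and the 8 HIF1 genes one of 0.21, with 4 higher and 1 lower, where all genes gave 6.86% higher and 6.22% lower. In the SREBP list Cyp51, a sterol synthesis enzyme, was at 28.5 ± 3.36 and 46.5 ± 6.15 CPM. Of 7 p53 targets, 1 was higher (Cdkn1a, the cell cycle inhibitor p21, at 121.6 ± 7.05 and 175.3 ± 36.2 CPM) and 1 lower (Bax, at 51.1 ± 5.83 and 39.1 ± 0.708 CPM). The 8 glucocorticoid-responsive genes had a median of 0.27, with 2 higher and 0 lower. In these lists 0 genes passed in limma without sample weights, as over all genes tested. With sample weights 20 of the 128 genes of all 10 lists passed, 14 higher and 6 lower (15.6%, against 7.42% of all genes). They included 5 of the 10 SREBP genes, Cyp51 among them, and 3 of the 14 MiT/TFE targets, all higher. Of the 8 HIF1 genes 2 passed higher (Pgk1 and Ldha) and 1 lower (Vegfa). Tfeb passed lower and Slc7a5 higher, and 0 of the 7 p53 targets passed. The lists were chosen with earlier results of these data known, and the weights favour W3 and N2. The share of 15.6% is therefore no test of the pathway.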

How the data were processed

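Lung RNA of 6 samples was read by paired-end Illumina sequencing (stated in the labels' protocols). The table deposited by the authors holds a TMM-normalized signal, as its name states, taken here as CPM on a linear scale. The submitters' processing notes list Bowtie2 2.1.0, RSEM 1.2.15, edgeR and the mm10 build but not what each was used for. How strand was handled, the annotation and any filter: not given in the sources used here. Dividing each column by its smallest step gave whole numbers (100% within 0.001), and these whole reads were used for edgeR and DESeq2.

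Groups came from the treatment label. Genes with a mean of at least 1 (14159) were compared on log2(value + 1) with limma 3.58.1 in R 4.3.3 (trend, two-sided, Benjamini-Hochberg over all genes, threshold 0.05). This scale understates differences of low genes. With 3 against 3 an exact permutation test cannot go below 0.1, so none was run on single genes. No label says whether each library came from its own mouse, so p-values measure only the spread between these samples, which may be technical. Reads of the rat cells cannot be told from mouse reads here. The fit was tested on simulated data. Promoters are from RefSeq (GRCm38.p6, 36 of 42 members matched), and sequence shared between genes is the percentage of 50-base words of one gene also present in other genes' GENCODE M21 transcripts.

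Named members were Tsc1, Tsc2, Tbc1d7, Rheb, Mtor, Rptor and Rictor, and those whose groups did not overlap. For other lists, genes were named from the 4 with the smallest unadjusted p, and not all are reported. Members, lists and tests were chosen with earlier results of these data known. Alternatives were pseudocounts, filters, scalings, no trend, sample weights (arrayWeights), edgeR 4.0.16, DESeq2 1.42.0, each library left out, and both libraries standing apart left out.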

Additional observations from a re-analysis of the deposited data

How the results depend on the processing

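No member passed at an adjusted p under 0.05 in any alternative except limma with sample weights (0.213 for N1 to 4.19 for W3). That fit called 4 members, Rragd (log2 fold 0.65) and Sesn3 (1.07) higher and Akt1s1 (-0.54) and Fnip1 (-0.55) lower, 9.52% of members against 7.42% of all genes (1050 genes). Their adjusted p was 0.0252, 0.0141, 0.0249 and 0.0214 there, and up to 0.995 in other alternatives. Over all genes DESeq2 called 11, and limma without both libraries standing apart called 23. Without both libraries 10 members were higher and 9 lower in all Tsc1-null EV libraries (45.2%, against 42.4% of all genes). With 1 library left out, 0 members and 0 to 2 genes were called, 4 to 7 members were higher (9.52% to 16.7%, all genes 9.12% to 14.9%) and 3 to 6 lower in all (7.14% to 14.3%, all genes 9% to 14.3%), and the median log2 fold of the members was -0.077 (without N2) to 0.023 (without N1). edgeR's scaling, with which Tbc1d7 overlapped, and a filter at a mean of 5, which removes Sesn3, left 3 members higher in all. The log2 fold of Rheb turned to 0.0027 with quantile normalization, 0.070 without W1 and 0.06 without W3, and ran from -0.20 to 0.070 over the libraries left out. That of Rptor turned to 0.043 without N1 (range -0.27 to 0.043) and 0.033 without both libraries, and that of Mtor to 0.017 without both. Rragd, Sesn3, Akt1s1 and Tsc2 did not turn in any alternative. Their log2 folds were 0.48 to 0.95, 0.67 to 1.07, -0.55 to -0.35 and -0.38 to -0.13. Their groups do not overlap, so leaving out or weighting libraries could not turn them, and this is no support for their differences. Tsc1, Tbc1d7, Mlst8, Rictor, Fnip1, Ddit4 and Rps6kb1 did not turn either. The cause of the changes between alternatives was not tested. No paired analysis was possible because the labels number the samples separately. Depth limits Rragb, Sesn3, Prr5 and Sesn2 most, with counting errors of 31.6%, 19.2%, 18.3% and 15.2%.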
